A study of Mus musculus with 9 samples.

Results

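Macrophages grown from the bone marrow of C57Bl/6 mice were read on 3 arrays, 1 per mouse, after vehicle and then 8 h of CD40 activation. These 3 arrays, chosen by their titles, are all the vehicle arrays among the 9 of the series. The marrow cells had become macrophages in RPMI with L929-conditioned medium, which supplies the growth factor M-CSF. They received vehicle for 1 h and then FGK45, an antibody that triggers CD40, at 25 ug/ml. The other 6 arrays had TRAF-STOP 6877002 or TRAF-STOP 6860766 in place of vehicle, and all 9 cultures received FGK45. No culture without the antibody is among them, so the values show what activated cells held and not what the antibody changed. The labels used here name neither the vehicle nor the age or sex of the mice.

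Macrophages are phagocytes that take up debris and microbes, digest them in lysosomes, present antigen and release chemokines and cytokines. CD40 belongs to the TNF receptor family, and its ligand sits on activated T cells and platelets. It has no enzyme activity of its own and signals by binding TRAF adaptor proteins, which lead to the NF-kB transcription factors and to MAP kinases. NF-kB drives genes of inflammation, including those of its own inhibitors, which end the response.

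The arrays were Illumina mouse BeadChips, on which beads that each carry 1 kind of probe bind labelled RNA copies. A level is the authors' log2 value, and a gene is represented by its brightest probe. A probe counted as detected at a detection p under 0.05, which places its intensity above nearly all of the array's negative control beads. A gene is called present if a probe was detected on all 3 arrays, absent if none of its probes was detected on any, and mixed otherwise. Brightness also depends on the probe's sequence, so the order of genes is an order of brightness and no gene is tested against another. Levels are given as the mean ± SD of 3 mice (n = 3 throughout), and 3 values in a row are those of mice 1, 2 and 3.

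Between 15271 and 15846 of 45281 probes were detected per array (33.7% to 35.0%), with median intensities before normalisation of 98.7 to 110. The arrays correlated at r = 0.994 to 0.995 across the 13866 probes detected on all 3. These correlations are across probes, which are not replicates. Each vehicle array lay on a different slide, so slide and mouse cannot be told apart. The number of arrays limits the precision of every value.

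Of 19057 genes with a symbol, 8019 were present (42.1%), 9445 were absent (49.6%) and 1593 were mixed. Present genes ran from 4.94 to 14.27 with a median of 8.03, while absent genes lay between 4.23 and 4.87. Mixed genes overlapped both, from 4.49 to 5.40. Among present genes 1775 (22.1%) had a mean above 10, 458 (5.71%) above 12 and 31 above 14.

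**Figure D1:**
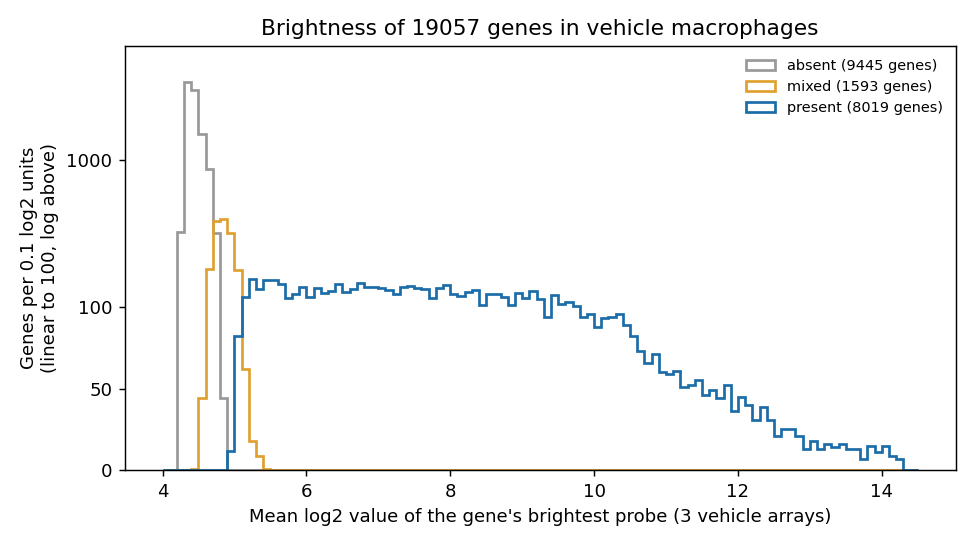
Number of genes (vertical axis, linear to 100 and logarithmic above) in steps of 0.1 along the mean log2 value of the 3 vehicle arrays (horizontal axis), with 1 line each for absent, mixed and present genes. Absent genes form a peak below 4.87, and the 8019 present genes stretch from 4.94 to 14.27.

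At the threshold itself, Pfdn1, a subunit of the prefoldin chaperone, was just inside with a highest detection p of 0.0492 and a level of 5.01 ± 0.16. Pkn3, a protein kinase, was inside at 0.0481 with a level of 5.16 ± 0.37. Just outside were Rasl2-9 at 5.05 ± 0.16 and Mnt, a MYC antagonist, at 5.05 ± 0.16, each with a highest p of 0.0502. The classes therefore meet without a gap in level.

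The brightest genes combined the machinery of protein synthesis with macrophage products. Eef1a1, the elongation factor that brings tRNA to the ribosome, was the brightest at 14.27 ± 0.06. Next came Cstb, an inhibitor of cathepsins, at 14.27 ± 0.06 and Fcer1g, the signalling chain shared by several Fc receptors, at 14.26 ± 0.05. The chemokine Ccl3 followed at 14.25 ± 0.12. Also among the 30 brightest were Psap (14.22 ± 0.05), the precursor of lysosomal saposins, and Lpl (14.20 ± 0.03), the lipase that releases fatty acids from lipoproteins. So were Actb, Ppia, Atp5b, Fth1, B2m, Ubb-ps, Litaf, Laptm5, Gpnmb and Mif, a cytokine that many cells hold ready-made. The ribosomal genes Rps2, Rplp1, Rpl41, Rps29, Rps12, Rpl38 and Rps24 and the mitochondrial gene CYTB completed this group together with 4 further chemokine and cytokine genes and the lysozymes. Those were Ccl9, Il1b, Ccl4 and Ccl7, and they are described below.

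Lyz2, the macrophage lysozyme, read 13.95, 14.15 and 14.16, and its near-identical copy Lyz1 read 13.79, 13.90 and 14.34. Probes of such close copies can bind RNA of both, so the lysozyme values are uncertain as to gene. Ubb-ps is by its symbol a pseudogene, and whether its probes bind RNA of another gene was not tested. Lyz1 had the widest SD of the 30, at 0.29, with mouse 3 high.

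**Figure D2:**
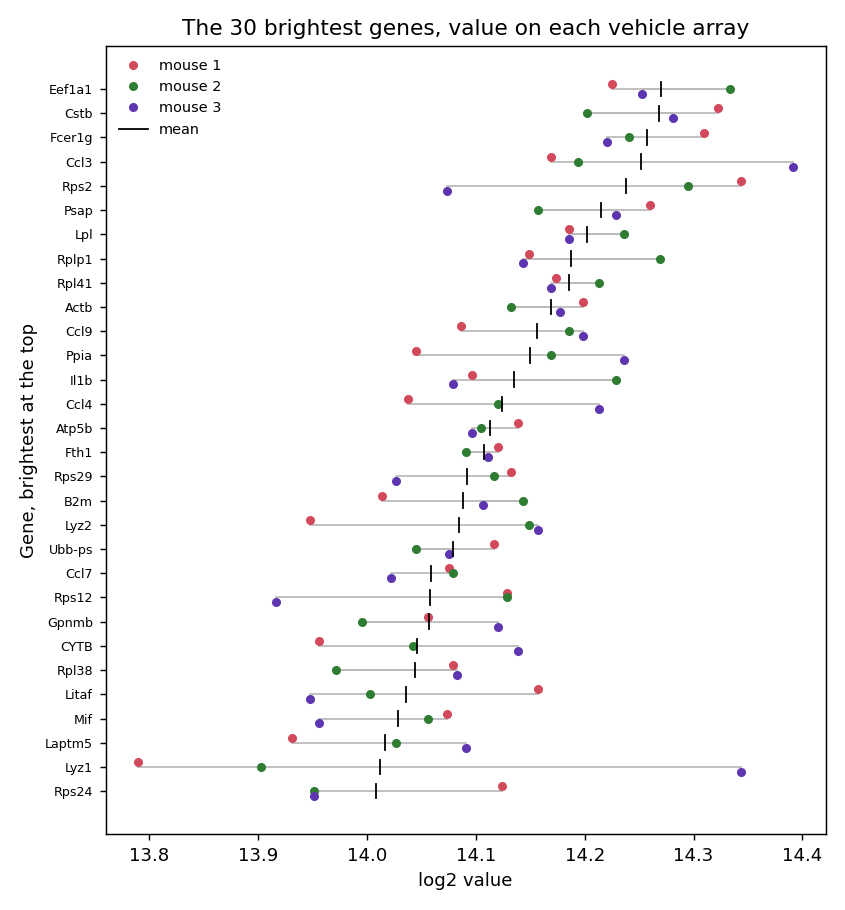
The log2 value (horizontal axis) of the 30 brightest genes (vertical axis, brightest at the top) in each of the 3 mice (coloured points) with the mean (black bar). Means lie between 14.01 and 14.27, and Lyz1 has the widest range, from 13.79 to 14.34, followed by Rps2 with a range of 0.27.

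Among the 100 brightest genes were 17 of 49 measured ribosomal protein genes, 7 macrophage identity genes, 6 actin cytoskeleton genes, 5 CC chemokines, 5 lysosomal genes and 5 genes of iron handling and redox defence. No gene of the CD40 and TRAF list or of the NF-kB list was among these 100. There were 38 on none of the 47 lists used here.

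The cells carried the markers of the label. Of 23 measured macrophage identity genes 21 were present (91.3%, against 42.1% of all genes), none was absent, and Maf and Cebpa were mixed. Adgre1, which encodes F4/80, read 13.53, 13.44 and 13.40. Csf1r, the receptor for M-CSF, read 11.38, 11.38 and 11.46, and Cd14, a co-receptor for bacterial lipopolysaccharide, read 13.95, 13.88 and 13.84. All 3 were close together in the 3 mice. Laptm5, Lgals3 and Sirpa were among the brightest members, at 14.02 ± 0.08, 13.82 ± 0.21 and 13.63 ± 0.10. Itgam, which encodes CD11b, was present at 6.04 ± 0.10.

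Genes of resident tissue macrophages were present at about the share of all genes, in 8 of 20 (40%). Marco, a scavenger receptor, was at 10.44 ± 0.28, Nr1h3, the liver X receptor alpha, at 9.66 ± 0.08, and Folr2, a folate receptor, at 9.04 ± 0.24. Spic, Siglec1 and Pparg were present too, at 7.44 ± 0.03, 6.89 ± 0.07 and 6.53 ± 0.09. Vsig4, Timd4, Clec4f, Lyve1, Gata6, Car4, Cd209f and Tmem119 were absent, among 11 absent members.

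Marker lists of other cells were detected in smaller shares. Each was below the 42.1% of all genes, from 4.55% (1 of 22 liver, muscle and neuron genes, which was Mbp) to 33.3% (4 of 12 osteoclast genes). Mbp was present on 1 of its 5 probes. For granulocytes and mast cells 6 of 22 were present, led by Lcn2 at 10.82 ± 0.11, S100a8 at 10.45 ± 0.11 and S100a9 at 9.15 ± 0.19, followed by the neutrophil granule protein genes Ltf at 6.89 ± 0.27, Camp at 6.41 ± 0.04 and Ngp at 5.73 ± 0.11. The granule enzyme genes Mpo, Elane and Prtn3 were absent. Of 18 B cell and plasma cell genes 3 were present, with Cd79b at 6.36 ± 0.05, and Ms4a1 and Pax5 were absent. For dendritic cells 4 of 16 were present, Bst2, Tcf4, Irf8 and Batf3, with Flt3, Zbtb46 and Xcr1 absent. Of 21 stromal genes 2 were present, Lox at 10.30 ± 0.13 and Acta2 at 7.05 ± 0.15 on 1 of its 6 probes. The collagen genes Col1a1, Col1a2 and Col3a1 were absent. The arrays read whole cultures, so fewer cells of a type and less RNA per cell cannot be told apart. What these markers contribute to other values was not tested.

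Several markers of other lineages were bright through a single probe that stood against its sister probes. Foxp3, the transcription factor of regulatory T cells, read 10.52, 10.56 and 10.55 on 1 probe, while its other 3 probes had means between 4.37 and 4.59 and were detected on no array. Cd8b1, the beta chain of CD8, read 9.32, 9.30 and 9.29 on 1 of 3 probes. Vwf, the von Willebrand factor of endothelium and platelets, read 9.71, 9.60 and 9.45 on 1 of 2. Of 19 T cell and NK cell genes 4 were present (21.1%): Foxp3, Cd8b1, Prf1, which encodes perforin, at 8.13 ± 0.27 on 1 of 2 probes, and Lat, an adaptor of the T cell receptor, at 5.20 ± 0.32 on 1 of 2 probes. The T cell genes Cd3d, Cd3e, Cd3g, Cd4 and Cd8a were among the 14 absent members. Of 20 endothelial and epithelial genes 2 were present, Vwf and Eng, which encodes endoglin, at 7.66 ± 0.11, and Pecam1 was among the 11 absent. The present calls of Foxp3, Cd8b1 and Vwf therefore rest on probes that the gene's other probes do not share. Pf4, a chemokine best known from platelets, was present at 12.35 ± 0.02 with its only probe. Ppbp, another platelet chemokine, was present at 5.68 ± 0.19 on both of its probes, and the platelet genes Itga2b and Gp1bb were absent. With Vwf these were the 3 present of 15 erythroid and megakaryocyte genes (20%).

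Disagreement between probes was common and bounds what an absent call can say. Of 9172 genes with more than 1 probe, 2698 (29.4%) had both a present and an absent probe. Eef1a1 had a probe at 14.27 and another at 4.34, and B2m had probes at 14.09 and 4.25. Rps24, Itm2b, Actb and Tmsb4x were the next in size of disagreement. An absent call is therefore a call on the probes of a gene and not on its RNA. Among 49 ribosomal protein genes, which every cell uses, Rps20, Rps23, Rpl6 and Rpl14 were absent, each with 1 probe.

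The receptor itself was bright. Cd40 read 13.21, 13.25 and 13.35 in the 3 mice, with 4 of its 5 probes present, a spread of 0.07 (SD). Of 23 measured CD40 and TRAF signalling genes 19 were present (82.6%), and 4 were absent. Cd40lg, the ligand, was absent at 4.43 ± 0.11.

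Among the adaptors, Traf1, which NF-kB induces in many cells, read 11.37, 11.12 and 11.10, and Traf6, which binds its own site on the CD40 tail, read 9.30, 9.33 and 9.32. Traf6 had a narrow spread, with an SD of 0.02. Traf2 was absent on its single probe, at 4.58, 4.70 and 4.90, and Traf4 was absent on 4 probes. The kinases Tbk1 and Ikbke and their scaffold Tank were present at 11.87 ± 0.04, 10.46 ± 0.08 and 10.74 ± 0.14. Mapk14, which encodes the p38 alpha kinase, was present at 10.39 ± 0.13, and Map3k5, which encodes the kinase ASK1, was absent.

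All 17 measured NF-kB subunits, inhibitors and kinases were present. Nfkbia, the inhibitor IkB-alpha, read 12.20, 12.13 and 12.29. Tnfaip3, the ubiquitin-editing inhibitor A20, read 10.35, 10.41 and 10.50, and its partner Tnip1 was at 11.79 ± 0.02. The subunit Rela was at 11.67 ± 0.09. Nfkb2 and Relb, the subunits of the alternative pathway, were at 9.26 ± 0.12 and 8.09 ± 0.06. Nfkbiz, a nuclear partner of NF-kB needed for some cytokine genes, was at 11.52 ± 0.07, and Otulin, which trims linear ubiquitin chains, at 10.97 ± 0.08.

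Promoters of these genes and of the chemokines were searched for the letters of an NF-kB site. Windows from 250 bases before to 50 after each gene start, from RefSeq (GRCm38.p6), were read on both strands for GGG, any 2 bases and then TTTCC. Of 32851 windows 535 held it (1.63%), and of the windows of present genes 1.83%. Among present members it was in 7 of 22 windows of the NF-kB list (31.8%), 4 of 13 of the interleukins, 2 of 8 of the CXC chemokines and 1 of 11 of the CC chemokines. Some genes have several overlapping windows, so these windows are not independent, and a match is a description of letters and not a binding site. No window of the 16 for macrophage identity genes held it, which says only that these letters are not there. The following stretches are shown because their genes are among the inducible mediators described here. Each is 50 bases on the gene's strand, 5′ to 3′, with the matching letters in capitals.

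Cxcl1 (chr5:90891154-90891203, plus strand): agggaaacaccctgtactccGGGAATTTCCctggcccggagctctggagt

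Cxcl2 (chr5:90903782-90903831, plus strand): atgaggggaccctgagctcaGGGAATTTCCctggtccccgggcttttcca

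Il6 (chr5:30013050-30013099, plus strand): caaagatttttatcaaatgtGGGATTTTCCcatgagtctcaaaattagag

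The neighbouring genes Cxcl1 and Cxcl2 have the same letters in the match, and Il6 has another spelling. Both chemokine windows hold a further match.

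Of 21 measured CC chemokine genes, which recruit monocytes, T cells and other leukocytes, 12 were present (57.1%), and 5 of these were among the 100 brightest of all genes. Ccl3 read 14.17, 14.19 and 14.39, and its neighbour Ccl4 read 14.04, 14.12 and 14.21. Ccl9 read 14.09, 14.19 and 14.20, with mouse 1 lowest in all 3 of these genes. Ccl7 and Ccl2, which attract monocytes through CCR2, were at 14.06 ± 0.03 and 13.25 ± 0.03, and Ccl5, which attracts T cells, was at 13.96 ± 0.05. Ccl22, a chemokine of dendritic cells and alternatively activated macrophages, was mixed at 5.07, 4.83 and 4.45, and Ccl1, Ccl19, Ccl20, Ccl21a, Ccl26 and Ccl28 were absent.

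Among 16 measured CXC, CX3C and XC chemokine genes 9 were present (56.3%). Cxcl2 and Cxcl1, which attract neutrophils, were at 13.25 ± 0.17 and 12.01 ± 0.15. Cxcl10, which interferons induce and which attracts T cells, read 12.72, 12.78 and 12.95. Cxcl16 was at 12.59 ± 0.08. Cx3cl1 was at 7.26 ± 0.09, and Cxcl3, Cxcl11, Cxcl13, Cxcl15, Cxcl17 and Xcl1 were absent.

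Receptors for chemokines were present in 3 of 22 (13.6%, against 42.1% of all genes). Ccrl2, a non-signalling receptor that binds chemerin, read 10.74, 10.90 and 11.02. Cx3cr1, the receptor of Cx3cl1, read 7.11, 6.61 and 6.31, with an SD of 0.41. Ackr4 was at 5.60 ± 0.17. Ccr1 was absent on its single probe, with a mean of 4.375, and Ccr2 was absent on both of its probes. Ccr3 and Ccr4 were absent too, as were Ccr8, Ccr9, Ccr10 and Cxcr1.

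**Figure D3:**
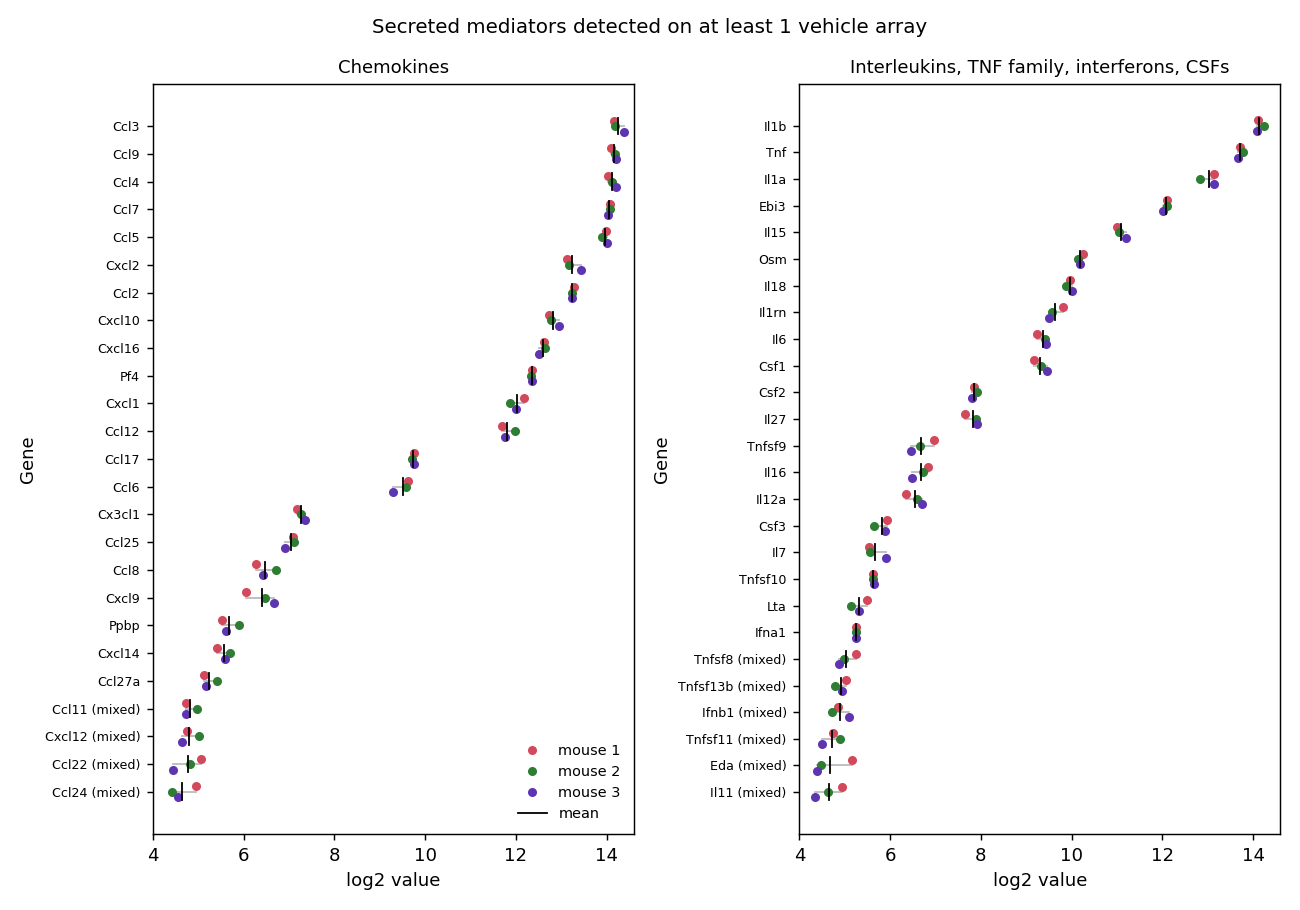
The log2 value (horizontal axis) of each chemokine (left) and each interleukin, TNF family, interferon and colony-stimulating factor gene (right) that was present or mixed, with 1 coloured point per mouse and a black bar at the mean. Ccl3, Ccl9, Ccl4, Ccl7 and Il1b lie at about 14, and the mixed genes, such as Ccl22, lie near 5.

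Of 30 measured interleukin genes 11 were present, a share of 36.7% that is near that of all genes. Il1b, the fever cytokine released through the inflammasome, read 14.10, 14.23 and 14.08, and Il1a read 13.13, 12.83 and 13.13. Ebi3, a subunit of IL-27 and IL-35, was at 12.07 ± 0.06, Il15 at 11.08 ± 0.11 and Il18 at 9.95 ± 0.07. Il1rn, the antagonist of the IL-1 receptor, read 9.81, 9.56 and 9.50, and Il6 read 9.24, 9.40 and 9.43. Il10, which restrains inflammation, was absent on its single probe at 4.82, 4.79 and 4.59, and Il23a was absent on both of its probes at 4.58 ± 0.06. Il2, Il3, Il4, Il5, Il9 and Il13 were among the 18 absent members. Il12b, Nfkb1 and the marker Cd68 were not analysed here.

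Tnf, the founding cytokine of its family, read 13.70, 13.77 and 13.67, and it was the only TNF superfamily ligand above 7 among the 4 present of 17 (23.5%). Tnfsf9, the ligand of 4-1BB, was at 6.69 ± 0.26. Of 23 TNF superfamily receptors 12 were present (52.2%). After Cd40 came Tnfrsf1b, the inducible TNF receptor, at 11.10 ± 0.08 and Fas, a death receptor, at 10.46 ± 0.12.

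Interferon and colony-stimulating factor genes were present in 5 of 16 (31.3%). Osm, a cytokine of the IL-6 family, read 10.25, 10.13 and 10.19, and Csf1, which encodes M-CSF, read 9.17, 9.32 and 9.45. Csf2, which encodes GM-CSF, was at 7.86 ± 0.05. Csf3, which encodes G-CSF, was at 5.82 ± 0.15. Ifna1, an interferon alpha gene, was present at 5.24, 5.26 and 5.25 on 1 of its 3 probes. Ifnb1 was mixed at 4.86, 4.72 and 5.08, and Ifna2, Ifna4, Ifna5 and Ifng were absent.

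Genes known to respond to interferon were present in 32 of 37 (86.5%). Rsad2, which encodes the antiviral viperin, read 13.92, 13.89 and 14.00, and Ifitm3, which blocks entry of viruses, read 14.07, 13.83 and 13.88. The GTPase genes Gbp2 and Irgm1 were at 13.62 ± 0.08 and 13.12 ± 0.10. Parp14 was at 12.78 ± 0.11, and Isg15, a ubiquitin-like protein, read 12.37, 12.65 and 12.31. Ifit1, Iigp1, Gbp6 and Xaf1 were absent, Ifit1 on its single probe at 4.40 ± 0.04, while the related Ifit2 and Ifit3, which lie outside the rule for naming and were chosen after their values were seen, had means of 12.38 and 12.21.

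The letters of an interferon-stimulated response element, read as GAAA, any 2 bases and again GAAA on either strand, were in 18 of 32 windows of present interferon-stimulated genes (56.3%). They were in 1131 of all 32851 windows (3.44%) and in 3.46% of the windows of present genes. The NF-kB letters were in 1 of these 32 windows. The motif served to choose the stretches below and defines nothing about the level of a gene. In the stretches of Rsad2 and Gbp2 the match lies on the opposite strand, so the capitals are its reverse complement. Matches can overlap, as they do in the window of Isg15.

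Rsad2 (chr12:26456543-26456592, minus strand): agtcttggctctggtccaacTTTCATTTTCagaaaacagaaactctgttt

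Gbp2 (chr3:142620584-142620633, plus strand): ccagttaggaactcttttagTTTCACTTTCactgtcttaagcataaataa

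Isg15 (chr4:156200867-156200916, minus strand): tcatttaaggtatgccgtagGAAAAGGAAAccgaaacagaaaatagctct

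Cxcl10 (chr5:92349073-92349122, minus strand): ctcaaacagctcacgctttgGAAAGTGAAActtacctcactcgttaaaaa

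Factors that carry cytokine and interferon signals were present in 26 of 29 (89.7%). Socs3, a feedback inhibitor of cytokine signalling, was at 13.26 ± 0.04, and Irf1 was at 12.98 ± 0.10 with all 5 of its probes present. Irf2, Irf3, Tyk2 and Jak2 were at 11.35 ± 0.07, 10.98 ± 0.13, 10.84 ± 0.05 and 10.48 ± 0.10. Stat5b, Socs7 and Irf4 were absent.

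Sensors of microbes were also broadly detected. Of 23 Toll-like receptor genes and adaptors 19 were present (82.6%), with the lipoprotein receptor Tlr2 at 12.85 ± 0.11, the adaptor Myd88 at 12.67 ± 0.03 and the inhibitory kinase relative Irak3 at 11.91 ± 0.07. Tlr5, Tlr9, Tlr11 and Tlr12 were absent. Of 25 inflammasome and cytosolic sensor genes 23 were present (92%). Casp1, which cleaves pro-IL-1 beta, read 13.33, 13.47 and 13.47. Gsdmd, the pore-forming protein, was at 11.44 ± 0.06, Casp4 at 11.22 ± 0.11 and Cgas, the sensor of cytosolic DNA, at 10.50 ± 0.08.

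Among cytokine receptors 21 of 36 were present (58.3%). Csf1r led, followed in brightness by Tgfbr1 at 10.64 ± 0.12, Csf2ra at 10.34 ± 0.18, Il10rb at 9.98 ± 0.10 and Tgfbr2 at 9.67 ± 0.06. Il1r1, Il1r2, Il2ra and Il2rb were absent, and so was Ifnar1 on its single probe.

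Antigen presentation by MHC class I was detected in 18 of 19 genes (94.7%). B2m, the light chain, was at 14.09 ± 0.07, H2-D1 at 13.27 ± 0.13, and the immunoproteasome genes Psmb10 and Psmb8 at 12.88 ± 0.09 and 12.52 ± 0.14. The chaperone gene Canx was absent on its single probe. For MHC class II 13 of 16 genes were present (81.3%). H2-Ab1 read 10.84, 10.72 and 10.76, Cd74, the invariant chain, read 10.54, 10.70 and 10.50, and H2-Aa was at 8.65 ± 0.06. Ciita, the master activator of class II genes, read 5.77, 5.56 and 5.38 and was present on 1 of its 2 probes.

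Of 26 co-stimulatory and checkpoint genes 17 were present (65.4%). Cd274, which encodes PD-L1, read 12.95, 13.09 and 13.03, and Lilrb4a, an inhibitory receptor, was at 12.68 ± 0.15. Cd47, the signal that tells macrophages not to eat a cell, was at 11.16 ± 0.09. The ligands of CD28 were lower on the brightness scale of their probes, with Cd86 at 7.97 ± 0.05 and Cd80 at 5.80, 6.11 and 6.31. Cd80 was present on 1 of its 2 probes. Pdcd1lg2, Vtcn1, Ctla4 and Pdcd1 were absent.

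Receptors for antibodies and for microbial or dying-cell surfaces were present in part. The Fc receptor list had 6 of 11 present, with Fcgr2b, the inhibitory receptor, at 12.32 ± 0.08, Fcgr3 at 11.71 ± 0.05 and Fcgr4 at 10.90 ± 0.07. Of 27 C-type lectins and siglecs 16 were present (59.3%), with Clec4e, which encodes Mincle, at 13.65 ± 0.05 and its partner Clec4d at 13.56 ± 0.06. Scavenger and phagocytic receptors and bridging proteins were present in 16 of 28 (57.1%), with Mfge8 at 12.33 ± 0.12, Trem2 at 11.36 ± 0.13 and Axl at 10.78 ± 0.06. Cd36 was absent on its single probe.

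Integrin and adhesion genes were present in 17 of 36 (47.2%), near the share of all genes. Cd81 was at 12.95 ± 0.04, Icam1, which binds leukocyte integrins, at 12.48 ± 0.06 and Cd44, the hyaluronan receptor, at 12.43 ± 0.12 on 3 of 9 probes present. Itgax, which encodes CD11c, was absent.

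Effector enzymes were mixed in brightness. Acod1, which makes itaconate, read 13.96, 13.85 and 13.87, and the NADPH oxidase genes Cyba and Ncf4 were at 13.81 ± 0.07 and 12.88 ± 0.13. Nos2, the inducible nitric oxide synthase, was present at 6.21, 6.00 and 6.36 on 1 of its 2 probes. Ptgs2, which encodes cyclooxygenase-2, was present at 6.01, 5.84 and 6.06, also on 1 of 2 probes. Arg1, which competes with Nos2 for arginine, was absent on both probes at 4.42 ± 0.07. In all 18 of 30 genes of nitric oxide, arginine and NADPH oxidase were present (60%).

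Genes of alternative activation, the programme set by IL-4, were present in 9 of 18 (50%, against 42.1% of all genes). Tgm2 was at 11.89 ± 0.08, Mrc1, the mannose receptor, at 10.33, 10.32 and 10.65, and Egr2 at 8.32, 7.86 and 7.64. Irf4 and Pdcd1lg2 were absent along with Arg1.

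Lysosomal genes were present in 26 of 33 (78.8%). Next to Psap, Ctsb was at 13.98 ± 0.15, Grn, which encodes progranulin, at 13.64 ± 0.03, Cst3 at 13.59 ± 0.06, Lamp1 at 13.44 ± 0.05 and Cd63 at 13.40 ± 0.01. Ctsg, the cathepsin of neutrophil granules, and Tfeb were absent. Among proteases of the matrix 10 of 25 genes were present (40%), near the 42.1% of all genes. Mmp13, a collagenase, read 12.84, 12.46 and 12.57, Mmp14 was at 12.35 ± 0.11, and Mmp12, the macrophage elastase, read 11.19, 11.01 and 10.92. Complement was present in 10 of 26 genes (38.5%), also near the share of all genes. Cfp, which encodes properdin, was at 13.98 ± 0.05, C1qb at 12.69 ± 0.09 and C1qc at 12.19 ± 0.07.

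Sterol and lipid genes were on separate lists. All 18 measured cholesterol synthesis genes were present, led by Fdps at 12.80 ± 0.07, Msmo1 at 11.90 ± 0.08 and Sqle at 11.18 ± 0.04. Lipid handling and LXR genes were present in 18 of 39 (46.2%), near the 42.1% of all genes. Among them Lpl was far up the brightness scale, with Fabp3 at 11.28 ± 0.14 and Apoe at 9.51, 9.77 and 9.48. Abca1, the transporter that exports cholesterol, was absent on its single probe at 4.31, 4.54 and 4.36.

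Glycolysis genes were present in 19 of 29 (65.5%), and the absent ones were mostly forms of other tissues, such as Slc2a2, Slc2a4, Gapdhs, Pgk2, Pgam2 and Pklr. Tpi1 was at 13.60 ± 0.06, Ldha at 13.42 ± 0.09, Gapdh at 13.39 ± 0.04 and Pgk1 at 13.10 ± 0.05. For oxidative phosphorylation 37 of 40 were present (92.5%), with Atp5b at 14.11 ± 0.02 and Ndufs1, Sdha and Cox8b absent. Of 35 iron and redox genes 27 were present (77.1%), with the ferritin chains Fth1 and Ftl1 at 14.11 ± 0.02 and 13.89 ± 0.18, the mitochondrial Sod2 at 13.92 ± 0.06, and Slc11a1, the phagosomal metal transporter, at 13.87 ± 0.04.

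Ribosomal protein genes were present in 44 of 49 (89.8%), and 38 were above the 90th percentile of present genes, which lay at 11.27. Actin cytoskeleton genes were present in 27 of 30 (90%), with Arpc5 at 14.00 ± 0.04. Of 36 cell cycle genes 28 were present (77.8%). Cdkn1a, the inhibitor p21, was the brightest of them, at 12.98, 13.02 and 12.99. Next came Ccnd3 at 9.75 ± 0.05, Cdk2 at 9.60 ± 0.09, E2f1 at 9.52 ± 0.11, the replication helicase gene Mcm5 at 9.48 ± 0.13 and Ccnd1 at 9.35 ± 0.18. The cell division genes Birc5, Plk1, Cdk1, Cdc20, Aurka and Top2a, chosen after their values were seen, were present with means between 8.00 and 9.31. The 7 absent members were Ccna1, Ccna2, Ccnb2, Ccne2, Bub1, Ube2c and the inhibitor gene Cdkn1b. Immediate early and stress genes were present in 26 of 31 (83.9%), with Hspa8 at 13.82 ± 0.10, Sqstm1 at 13.31 ± 0.18, Ier3 at 12.77 ± 0.05 and Atf4 at 12.33 ± 0.13. Growth factors and coagulation genes were present in 17 of 36 (47.2%), near the share of all genes. The brightest were Igf1 at 11.60 ± 0.08 and F10, coagulation factor X, at 11.08 ± 0.14.

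**Figure D4:**
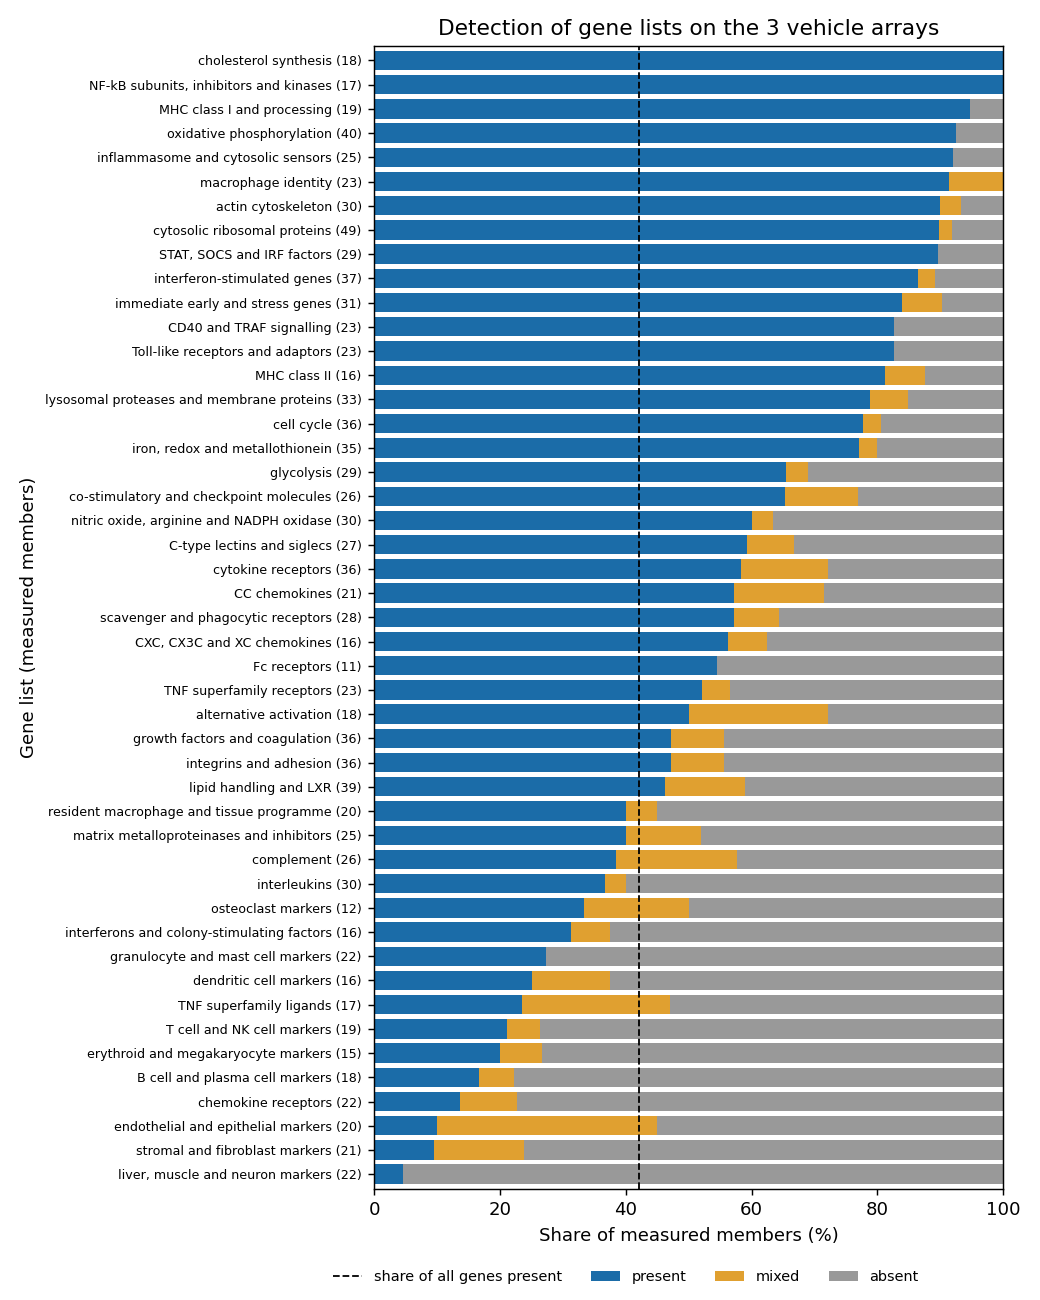
Share of the measured members (horizontal axis, percent) of each of the 47 gene lists (vertical axis, with the number measured) that was present, mixed or absent on the vehicle arrays, and the share of all genes present (dashed line, 42.1%). Cholesterol synthesis and NF-kB genes were all present, and markers of liver, muscle and neurons were nearly all absent.

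The lists were put together from well-known genes, so these counts describe the lists and carry no test. Each share is to be read beside the 42.1% of all genes that were present. Promoter windows differed in composition between the classes. CpG-rich windows, with at least 50% G and C and an observed over expected CpG ratio of at least 0.6, made up 67.7% of the windows of present genes, 45.3% of mixed and 30.2% of absent genes. The lists differed from each other. Among present members such windows made up 6.25% for macrophage identity genes, 3.13% for interferon-stimulated genes, 7.69% for interleukins, 9.09% for CC chemokines, 25% for CXC, CX3C and XC chemokines and 21.7% for lysosomal genes. They made up 59.1% for NF-kB genes, 60% for CD40 and TRAF genes, 79.1% for ribosomal genes and 89.3% for oxidative phosphorylation genes. Genes on the X chromosome were present in 34.0% and those on chromosome 5 in 49.8%, against 42.1% of all genes. On the Y chromosome 4 of 19 were present (21.05%). Xist was absent on its 4 probes, and Tsix was absent too. The Y-linked Eif2s3y read 9.34, 9.70 and 9.42 in the 3 mice. Kdm5d and Uty, also Y-linked, were present at 5.92 ± 0.07 and 5.53 ± 0.41. RNA of Y-linked genes was thus detected on every vehicle array. These genes were chosen after their values were seen.

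The mice differed little from each other. Over the 8019 present genes the median SD was 0.108 and the median range, highest minus lowest array, was 0.205. The range exceeded 0.5 in 511 genes (6.37%) and 1 in 9 genes (0.112%), and it exceeded 1.5 in 0 genes. The median SD was 0.167 for means of 5 to 6, 0.129 for 6 to 8 and 0.0660 above 12. The 12 present genes with means below 5 had a median SD of 0.0551. A present gene must be detected on every array, which keeps each of its values above the detection threshold. With a mean below 5 these values have to lie close together. The small SD of these 12 genes is therefore limited by the class rule and does not measure the spread of dim genes.

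Ifih1, which encodes the RNA sensor MDA5, had the widest range, with 5.01, 6.13 and 5.46. Hspa5, the chaperone BiP, read 5.83, 6.94 and 6.59. Chp1 read 5.26, 5.90 and 6.35. In all 3 genes mouse 1 was lowest, and all 3 were dim, with means of 5.53, 6.45 and 5.84. Ifih1 was near the detection threshold in mouse 1, with a detection p of 0.0374. With uncorrected log2 intensity minus the median, 0 genes had a range over 1. The other genes over 1 were Coq8b, Apbb3, Rnf111, Vta1, Cfap20 and Plod1, and the next were Gpr162, Cnn2 and Usp25. Bst2, an interferon-responsive tether of viruses, read 11.50, 10.98 and 10.65, with mouse 1 highest.

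**Figure D5:**
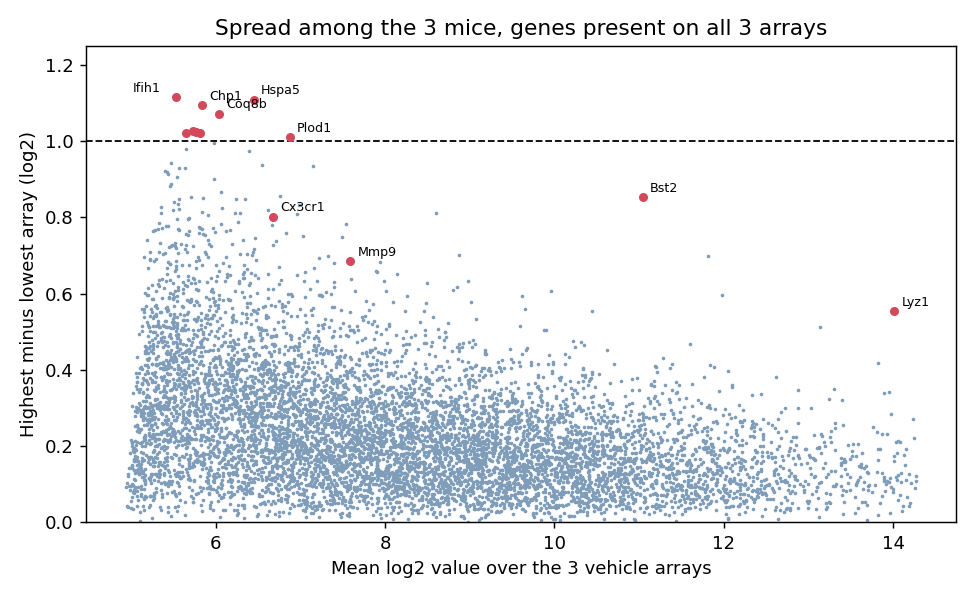
Range among the 3 mice (vertical axis, highest minus lowest log2 value) against the mean log2 value (horizontal axis) of the 8019 present genes, with the threshold of 1 as a dashed line. The 9 genes over the line have means below 7, and Bst2 and Lyz1 are the named bright genes with wide ranges.

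Whether the mouse differences recur was asked across all 9 arrays, which carry mouse numbers 1 to 3 in every group. Limma's F test for mouse, with treatment in the model, called 0 of 11406 features at an adjusted p under 0.05 (0%), and 463 had an unadjusted p under 0.05. Deviations of arrays from their group mean were also correlated across features between groups. For the vehicle arrays, r with arrays of the same mouse number ran from -0.134 to 0.159, the highest on a shared slide. The highest r between any groups, 0.283, joined vehicle mouse 2 and mouse 3 of TRAF-STOP 6860766. The labels do not say whether a mouse number is the same animal in every group. The lowest p was that of Mmp9, the gelatinase B gene, at 1.66e-05 (limma adjusted p 0.19), whose vehicle values were 7.90, 7.64 and 7.22. Mmp13 followed with a limma adjusted p of 0.307. Pdgfb, Pdpn, Il1rn, Fabp3, Calhm6, Cx3cr1, Dusp1 and AA467197 completed the 10 lowest, none past the threshold. In the vehicle arrays mouse 1 was highest in 8 of these 10 and lowest in Fabp3 and Calhm6. The 10 were picked by p from a fit that includes these arrays, so this order is no separate evidence of a mouse difference. The p-values of this test set differences between mouse numbers against the residual variation of these 9 arrays.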

How the data were processed

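RNA of 9 macrophage cultures was read on Illumina mouse BeadChips. The deposited intensity values were not normalised between arrays, per the file headers; the submitters' processing notes name GenomeStudio 2011.1. Beside each stands the authors' detection p-value. For the authors' log2 values those notes name limma 3.22.7 in R 3.1.3 and no function. The deposited log2 values differed by at most 0.0161 from neqc (normexp, offset 16, quantile) run here with R 4.3.3 and limma 3.58.1. Quantile normalisation gives every array the same set of values, so a difference in total RNA cannot show.

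The platform annotation gave 1 symbol to 34885 of 45281 probes, several to 18 and none listed to 10378. Classes and means use the 3 vehicle arrays (Python 3.11.15, pandas 2.3.3, numpy 2.4.6). The F test for mouse (lmFit, eBayes with trend, Benjamini-Hochberg) used 9 arrays and features detected on at least 3, and was tested on simulated data. Alternatives were detection at 0.01, other normalisations, 1 probe or all probes per gene, and leaving out each array. Named were the 30 brightest genes, 40 chosen genes, up to 6 present and 8 absent members per list, and the extremes of range, mouse p, threshold and probe disagreement. The members and lists were chosen with earlier results of these data known. The labels number the mice and do not say that samples came from separate cultures beyond that. RefSeq promoters are of GRCm38.p6. Errors are SDs over 3 mice, and no confidence intervals were computed.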

Additional observations from a re-analysis of the deposited data

Results flagged for a closer look

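Probes without a single gene symbol entered the array correlations and the F test for mouse when detected, but no gene count or list. Of these 10396 probes 1783 (17.2%) were detected on all 3 vehicle arrays. Their median was 7.22 on the log2 scale, the highest was 14.34, and 153 had a mean above 12. They stand out as signal in data that no gene count above uses, and they are not named here.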

How the results depend on the processing

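The 100 brightest genes were shared in full with neqc on 9 arrays, neqc on the 3 vehicle arrays and uncorrected log2 intensity, and in 96 to 99 when 1 vehicle array was left out, but 62 of 100 were shared when a gene was the mean over its probes. Genes with a range over 1 numbered 9, against 0 with uncorrected log2 intensity minus the median, 4 with detection at 0.01 and 0 to 7 when 1 vehicle array was left out (0 without mouse 1, 4 without mouse 2 and 7 without mouse 3). Fewer arrays can only narrow the range of a probe, but they also let more genes count as present. Without mouse 3, 6 of the 7 genes were among the main 9. The cause of these changes was not tested. The F test for mouse called 0 features, and 2 with median scaling, 15 with array weights and 0 to 14 when 1 of 9 arrays was left out (14 without replicate 3 of TRAF-STOP 6860766). The cause was not tested. Genes present numbered 7465 at a detection p of 0.01, 8015 by the brightest probe alone and 8172 to 8221 without 1 array, against 8019. Listed genes present fell from 665 to 641 at 0.01, and Ccl22 and Ifnb1, mixed at 0.05, were absent at 0.01. Of 63 named genes 21 moved by more than 1 SD with neqc on the 3 vehicle arrays alone. No paired analysis was possible because a single group is described and the mouse number is itself the term tested. Signal over background limits the dim genes, whose class turns on detection p-values near the threshold.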
